A study of Mus musculus with 6 samples.

Results

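Wnt target and stem cell feedback genes were examined in the colon of control and Islr knockout mice. The 10 members, Lgr5, Ascl2, Lrig1, Rnf43, Znrf3, Axin2, Nkd1, Notum, Apcdd1 and Sp5, were chosen by name, and all 15 of their probes among the 56605 probes of the array were taken. Each of the 6 male mice, 3 controls and 3 Islr knockouts, contributed 1 single-colour Agilent array. Per the sample source, all animals of both genotypes drank 3.5% dextran sulfate sodium, which injures the colonic epithelium, over 5 days and then recovered for 1 day, although a separate label field states no treatment. The labels used here give neither the age of the mice nor the cells in which Islr was deleted. They name the genotypes only as control and Islr knockout and give no strain, and the design text mentions a flow separation without naming the cells kept.

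Wnt ligands act on Frizzled and LRP receptors, which stops the destruction of beta-catenin. Beta-catenin then joins TCF/LEF factors in the nucleus and turns on target genes. Several of these targets encode inhibitors of the pathway itself, acting at the cell surface, in the cytoplasm and in the nucleus, and they are therefore used as readouts of Wnt activity and as feedback genes. In the intestine the pathway maintains the stem cells at the crypt base.

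Islr, a secreted leucine-rich repeat protein, was 2.44 lower in the knockout arrays on the log2 scale (SE 0.21, limma adjusted p 0.0171), with control replicate 1 left out because its spot was marked as an outlier. Values throughout are log2 signals of a probe relative to the 75th percentile of its array, so levels of different probes are not compared. Before scaling, that percentile was 6353 to 7110.45 intensity units in the controls and 4910.5 to 5820.03 in the knockouts, and 69.4% to 75.4% of spots were well above background. The arrays lay on 1 slide, with each genotype in a row of its own, so slide row and genotype cannot be told apart. No source used here gives litters or RNA batches. The 10 epithelial markers and the 8 markers of differentiated colonocytes were well above background on all 6 arrays.

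Among the members tested with outlier spots left out, Rnf43 was the only one whose difference passed, and it was higher in the knockout. A probe was tested where all 3 arrays of at least 1 genotype were well above background and each genotype had at least 2 usable spots, which held for 11 of the 15 member probes and 9 of the 10 genes. Of these 11 probes, 1 had a limma adjusted p under 0.05, adjusted over all 35351 tested probes, of which 3.97% were called, 1.55% higher and 2.42% lower in the knockout. An unadjusted p under 0.05 was reached by 5 of the 11, against 26.8% of all tested probes. Among the 8 member probes with a usable spot on every array, the genotypes did not overlap at 5, against 34.5% of all such probes (16.5% higher and 18% lower). Of those 5, Rnf43 and Ascl2 were higher in the knockout, and Apcdd1, Sp5 and 1 of 3 Znrf3 probes were lower. Sp5, which is in both counts of 5, entered the test through the controls alone, where its signal was higher. The brightest tested probes of the 9 genes had a median log2 difference of -0.20, with 4 higher and 5 lower, beside a median of 0.01 over all 16451 tested genes. The members thus did not share a direction.

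**Figure D1:**
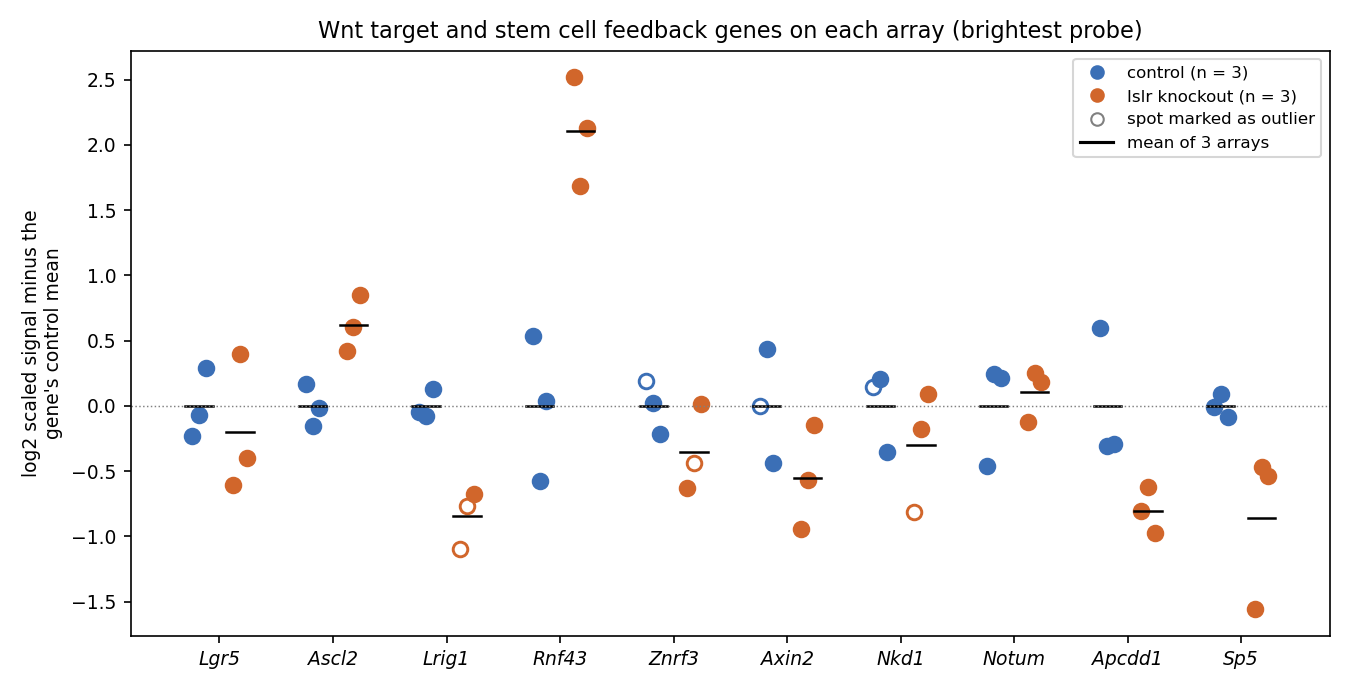
Log2 scaled signal of the brightest probe of each member on each array, drawn relative to the mean of the 3 controls of that gene; filled points are usable spots, open points are spots marked as outliers by the scanner software, and bars are means of 3 arrays. All 3 Rnf43 knockout points lie above all controls, whereas the Lrig1, Apcdd1 and Sp5 knockout points lie below them.

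Rnf43 and Znrf3 are paralogous transmembrane ubiquitin ligases that remove Frizzled receptors from the cell surface, and R-spondins bound to LGR receptors relieve this brake. The Rnf43 probe (A_51_P337101) read -1.45, -2.56 and -1.95 in the controls, in the order of replicates 1 to 3, and 0.53, -0.30 and 0.14 in the knockouts. In unscaled intensity this was 2327, 1208 and 1698 units in controls and 7111, 4734 and 6380 units in knockouts, although the knockout arrays were dimmer as a whole. No knockout array overlapped any control, and no spot was marked as an outlier. Knockouts exceeded controls by 2.11 on the log2 scale (SE 0.34, 95% interval 1.31 to 2.92, limma adjusted p 0.0349), a 4.32-fold higher signal. The direction held whichever array was left out, with differences of 1.82 to 2.38, but the call was lost without control replicate 2 (adjusted p 0.0845), control replicate 3 (0.0914), knockout replicate 1 (0.0771) or knockout replicate 3 (0.0887). Testing the dim probes as well brought it to 0.0540.

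Znrf3 gave no such rise at any of its 3 probes. At the brightest (A_52_P234039) the usable spots read -1.25 and -1.49 for controls 2 and 3, against -1.90 and -1.26 for knockouts 1 and 3, so the genotypes overlapped. Its log2 difference was -0.21 (SE 0.30, 95% interval -0.99 to 0.57, limma adjusted p 0.690). The second probe (A_65_P09639) read -4.20, -3.72 and -3.70 in controls and -4.45, -4.55 and -4.46 in knockouts. Here all knockouts lay below all controls, by 0.62 on average (SE 0.18, limma adjusted p 0.0961), and the probe was called without control replicate 1 (adjusted p 0.0473). The third probe (A_66_P136072) overlapped between genotypes, with a log2 difference of -0.10 (SE 0.23, adjusted p 0.813). The upper ends of the 3 intervals, 0.57, -0.18 and 0.44, lay below the lower end of the Rnf43 interval.

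The change of Rnf43 relative to Znrf3 was also taken within each array, where scaling between arrays cancels. This ratio uses the same Rnf43 values, so it is not independent of the difference given above. How many of all probes separated the genotypes when set against Znrf3 was not counted. With the brightest Znrf3 probe and its 2 usable arrays per genotype, the log2 ratio was 2.80 higher in knockouts (exact permutation p 0.333, the smallest that 2 against 2 can give). With the other probes, which had all 6 arrays, it was 2.73 and 2.21 higher, and no knockout array overlapped a control (two-sided exact permutation p 0.1 for each, the smallest that 3 against 3 can give).

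**Figure D2:**
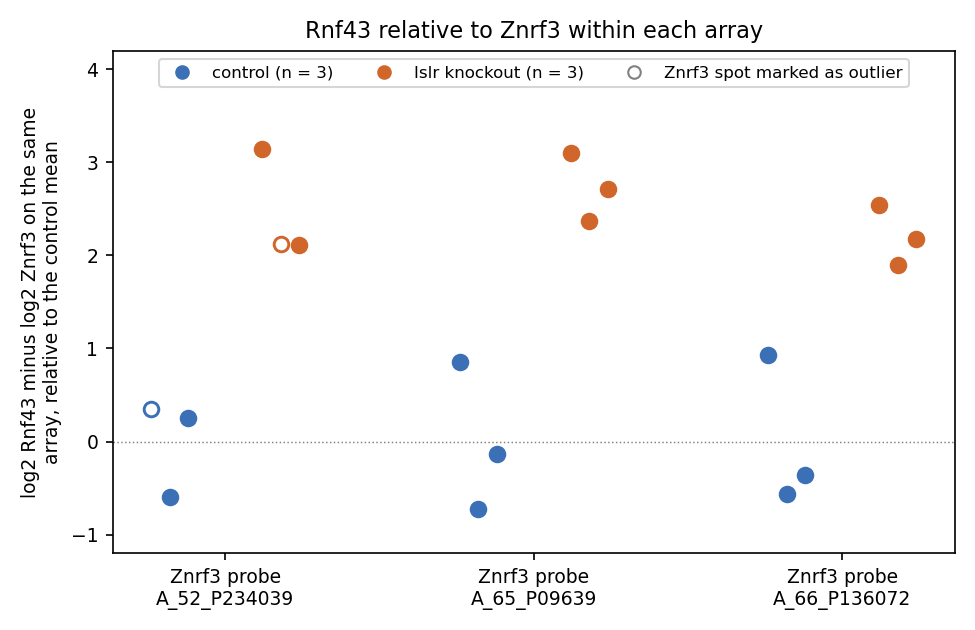
Log2 Rnf43 signal minus log2 Znrf3 signal on the same array, relative to the control mean, for each of the 3 Znrf3 probes; open points are arrays whose Znrf3 spot was marked as an outlier. At every Znrf3 probe all 3 knockout points lie above all 3 controls, by 2.46, 2.73 and 2.21 on average with the marked spots kept.

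Rnf43 was the member whose order over the arrays matched that of the epithelial markers. The summed linear signal of the 10 epithelial markers, in multiples of the 75th percentile and with outlier spots kept, was 57.5, 17.1 and 44.7 in the controls, again in replicate order, against 92.5, 70.8 and 71.2 in the knockouts. From lowest to highest, both the sum and Rnf43 ran control 2, control 3, control 1, knockout 2, knockout 3 and knockout 1. This held for 1 of the 10 members. How many of all probes ran in this order was not counted, so the match is not shown to be particular to Rnf43. All 8 tested epithelial markers were higher in the knockout, with a median log2 difference of 1.32 and a range of 0.68 to 1.69. Beside 26.8% of all tested probes, 3 of these markers had an unadjusted p under 0.05, and 0 were called in limma. The log2 of their sum was 1.14 higher in knockouts. Set against that sum within each array, Rnf43 was 0.97 higher in the knockout without overlap (exact permutation p 0.1). Of the 40172 probes set against the sum in the same way, 1.82% were higher without overlap. The 0.97 rests on the markers summed, whose own tested differences ran from 0.68 to 1.69, and sums of other markers were not tested. In bulk tissue, more cells of a type and more RNA per cell cannot be told apart.

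Against the same epithelial sum, Lrig1, Znrf3, Axin2, Nkd1, Apcdd1 and Sp5 were lower in the knockout without overlap, by -1.98, -1.49, -1.69, -1.43, -1.94 and -1.99 on the log2 scale (exact permutation p 0.1 for each, unadjusted over the 10 members compared). The same held for 53.3% of those 40172 probes, so 6 of 10 members is near the share of all probes. Of the 6, the Znrf3, Axin2 and Nkd1 probes overlapped between genotypes before the sum was taken off. Sp5, also among the 6, passed the background rule through the controls alone. Lgr5, Ascl2 and Notum overlapped, with relative differences of -1.34 (exact permutation p 0.2), -0.51 (p 0.5) and -1.03 (p 0.3). Since the sum itself was higher in the knockouts, these values describe the members against epithelial signal and not their own level.

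**Figure D3:**
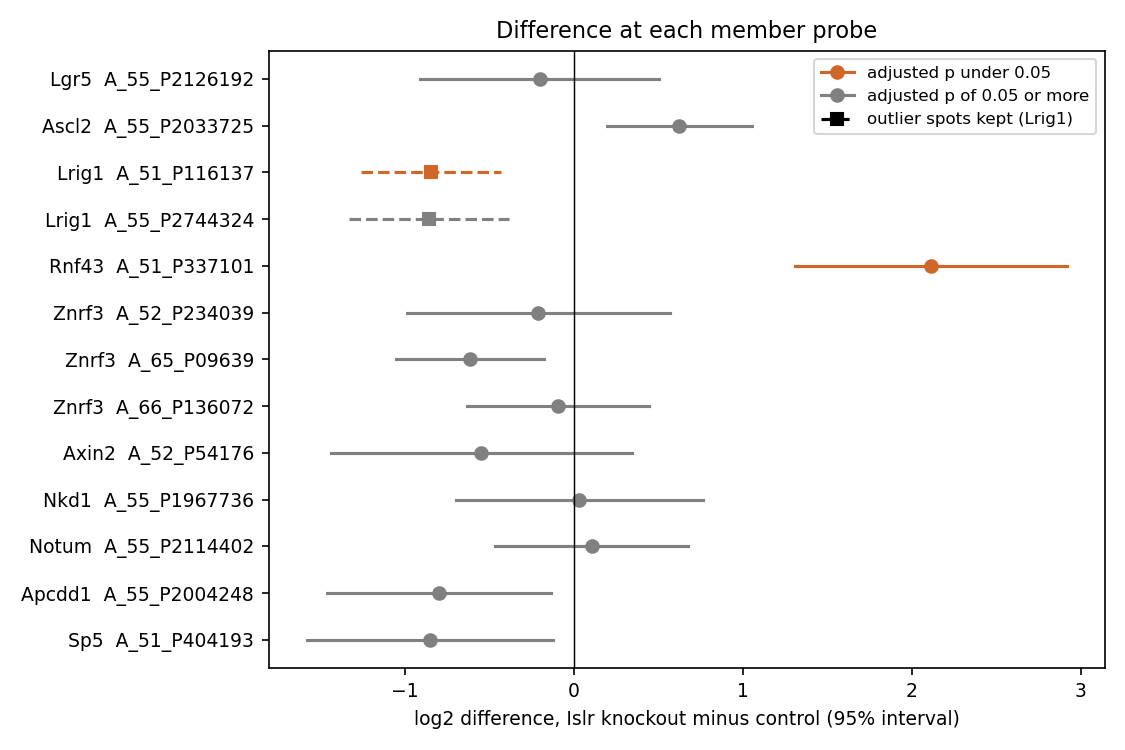
Log2 difference, knockout minus control, at each member probe with its 95% interval from limma; orange marks an adjusted p under 0.05, and squares with dashed lines are the Lrig1 probes, which could be tested only with outlier spots kept. The Rnf43 interval, 1.31 to 2.92, lies apart from all others.

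Lgr5, the R-spondin receptor that marks crypt base stem cells, did not separate the genotypes. Its probe read -4.46, -4.30 and -3.94 in controls and -4.84, -3.83 and -4.63 in knockouts. Knockout replicate 2 was the highest of all arrays and the other knockouts the lowest. The log2 difference was -0.20 (SE 0.30, 95% interval -0.91 to 0.51, limma adjusted p 0.696). It was -0.50 without knockout replicate 2 and -0.0013 without knockout replicate 1.

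Ascl2, a basic helix-loop-helix factor that sets the stem cell programme, read -2.62, -2.94 and -2.81 in controls and -2.37, -2.19 and -1.94 in knockouts. Every knockout lay above every control. The difference of 0.62 (SE 0.18, 95% interval 0.20 to 1.05) did not pass in limma (adjusted p 0.0903).

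Lrig1 restrains ERBB receptor signalling and marks a stem cell population. It could not be tested as the other members were, because outlier marks left 1 usable knockout at its brighter probe (A_51_P116137) and 1 usable control at the dimmer one (A_55_P2744324). With the marked spots kept, the brighter probe read 1.52, 1.49 and 1.70 in controls and 0.48, 0.80 and 0.89 in knockouts, and the dimmer one 0.42, 0.48 and -0.06 against -0.74, -0.52 and -0.47. All knockouts lay below all controls at both probes, as at 17.6% of all probes in that direction. The log2 differences were -0.85 (SE 0.17, limma adjusted p 0.0470) and -0.86 (SE 0.20, adjusted p 0.0575) in a fit that called 4.85% of 40172 probes, 2.89% as lower in the knockout. With any array left out, the brighter probe lost its call, with differences of -0.93 to -0.72 and adjusted p of 0.0556 to 0.130.

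The cytoplasmic inhibitors were Axin2, a scaffold of the complex that destroys beta-catenin and a widely used Wnt target, and Nkd1, which binds Dishevelled. The brighter Axin2 probe read -3.04 and -3.92 for controls 2 and 3, against -4.42, -4.05 and -3.62 in knockouts. The genotypes overlapped, and the log2 difference of -0.55 (SE 0.36, 95% interval -1.44 to 0.34) did not pass in limma (adjusted p 0.376); it was -0.36 without knockout replicate 1. The other Axin2 probe was well above background on no array. Nkd1 had 2 usable spots per genotype, 0.37 and -0.18 for controls 2 and 3, against -0.0043 and 0.26 for knockouts 2 and 3. Its log2 difference of 0.03 (SE 0.28, 95% interval -0.70 to 0.76, limma adjusted p 0.956) turned to -0.30 with the marked spots kept, among them knockout replicate 1 at -0.65.

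The extracellular and membrane inhibitors were Notum, which removes the lipid that Wnt ligands need for activity, and Apcdd1, a membrane glycoprotein that binds Wnt and LRP. Notum read -0.50, 0.20 and 0.17 in controls and -0.17, 0.21 and 0.14 in knockouts at its brighter probe, a log2 difference of 0.10 (SE 0.24, 95% interval -0.47 to 0.67, limma adjusted p 0.812). Control replicate 1 was the lowest, and without it the difference was -0.13. The dimmer Notum probe cleared background on 1 array of each genotype and was not tested. Apcdd1 read -2.53, -3.43 and -3.41 in controls and -3.93, -3.74 and -4.10 in knockouts. All knockouts were lower, by -0.80 (SE 0.28, 95% interval -1.46 to -0.14), which did not pass in limma (adjusted p 0.128). Control replicate 1 stood above the other controls, and without it the difference was -0.50 (adjusted p 0.131).

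Sp5, a zinc finger repressor that is itself a direct Wnt target, read -4.90, -4.80 and -4.97 in controls and -6.45, -5.36 and -5.43 in knockouts. All knockouts lay below the controls. Knockout replicate 1 was not well above background, so Sp5 entered the test through the controls alone. The size of its difference, -0.86 (SE 0.30, limma adjusted p 0.136), is therefore uncertain, and it was -0.50 without that array.

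Promoter sequences of 6 of the 10 members, with 2 start sites for Rnf43, were taken from RefSeq on GRCm38.p6; those of Lgr5, Znrf3, Notum and Apcdd1 were not analysed here. The 250 bases before each start were searched on both strands for CTTTGAT and CTTTGAA, forms of the TCF/LEF core motif. A match lay in 1 of the 7 member promoters, that of Sp5, and in 7.48% of all 32851 promoters of that length. Sp5 is shown as the promoter with the match, in capitals on the gene's strand and beginning 104 bases before the start (chr2:70474673-70474922, plus strand). The Rnf43 promoters, of the member that rose, are shown for comparison (chr11:87662837-87663086 and chr11:87699647-87699896, plus strand). These letters are a description of the windows and not binding sites.
Sp5: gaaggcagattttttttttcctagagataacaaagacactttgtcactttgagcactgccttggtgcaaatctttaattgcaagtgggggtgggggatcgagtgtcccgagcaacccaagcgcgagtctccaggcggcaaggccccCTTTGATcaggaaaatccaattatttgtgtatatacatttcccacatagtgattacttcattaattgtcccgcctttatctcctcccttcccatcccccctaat
Rnf43 start 1: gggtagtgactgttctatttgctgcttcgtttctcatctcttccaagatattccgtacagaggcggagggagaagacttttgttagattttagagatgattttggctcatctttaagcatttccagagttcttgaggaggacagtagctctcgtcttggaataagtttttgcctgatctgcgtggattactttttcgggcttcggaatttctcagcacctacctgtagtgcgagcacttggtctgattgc
Rnf43 start 2: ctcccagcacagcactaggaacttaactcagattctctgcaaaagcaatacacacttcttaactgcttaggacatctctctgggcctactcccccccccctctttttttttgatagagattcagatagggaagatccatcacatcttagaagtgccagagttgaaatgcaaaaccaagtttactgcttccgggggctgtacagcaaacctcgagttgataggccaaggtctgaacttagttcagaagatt

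Knockout replicate 1 was the lowest knockout for 8 of the 10 members and the highest for Rnf43 (brightest probes, outlier spots kept). The share of all probes lowest on that array was not counted, so this order is not shown to be particular to the members. The lowest controls were spread over the 3 arrays, with 2, 4 and 4 members in replicates 1, 2 and 3. Knockout replicate 1 also had the lowest 75th percentile, 4910.5 units, the most outlier spots, 16.0% against 3.26% to 13.6% on the others, and the highest epithelial and lowest fibroblast sums. The part of these features in the members' order was not tested.

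Other genes of the pathway were taken from lists written with earlier results of these data known. Of 32 tested receptor and transduction genes (35 listed), 0 were called in limma in either direction, against 3.97% of all probes. An unadjusted p under 0.05 was reached by 4 higher and 3 lower genes, beside 26.8% of all tested probes. The median log2 difference was -0.02. Tcf7l2, the main TCF factor of the intestinal epithelium, read 0.96, -0.33 and 0.28 in controls and 2.12, 1.56 and 1.55 in knockouts, a difference of 1.44 (SE 0.35, adjusted p 0.0665) without overlap. It was called without control replicate 1 (adjusted p 0.0384). The other Tcf7l2 probes were also higher in the knockouts without overlap. Among them A_55_P2143724 differed by 0.97 (SE 0.19, limma adjusted p 0.0534), and by 1.12 with outlier spots kept (adjusted p 0.0353). Lef1, a related factor also found in lymphocytes, differed by -1.26 with overlap (SE 0.41, adjusted p 0.114). Fzd4, singled out after its values were seen, differed by -1.11 (SE 0.24, limma adjusted p 0.0547). This was the lowest adjusted p among the brightest tested probes of the list. The R-spondin receptor Lgr4 was 0.95 higher (SE 0.37, adjusted p 0.174) and the Wnt co-receptor Lrp6 0.38 higher (SE 0.15, adjusted p 0.172). The tested probe of Ctnnb1, which encodes beta-catenin, was 0.31 higher (SE 0.21, adjusted p 0.388). None of these passed. Lgr4 and Ctnnb1 each had a brighter probe that outlier marks kept from the test. With outlier spots kept, these differed by 0.59 (limma adjusted p 0.151) and 0.22 (adjusted p 0.432).

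Among 17 tested further Wnt targets (20 listed), 0 were called at their brightest probe in limma, with a median of 0.04. At an unadjusted p under 0.05 there were 5 higher and 3 lower, beside 26.8% of all tested probes. The largest differences were those of the intestinal homeobox gene Cdx1 (1.98, SE 0.71, adjusted p 0.140) and the ephrin receptor Ephb2 (1.61, SE 0.37, adjusted p 0.0609). Sox9, a crypt progenitor factor, read 0.65, -0.18 and 1.28 in controls and 1.98, 2.32 and 2.01 in knockouts, 1.52 higher without overlap (SE 0.36, adjusted p 0.0649). Its dimmer probe was 1.27 higher (limma adjusted p 0.0530) and was called with outlier spots kept (adjusted p 0.0499). The brightest Sox9 probe was called under median centring (adjusted p 0.0492) and with array weights (0.0222). It was called in no fit with an array left out (adjusted p 0.0738 to 0.138). Myc overlapped between genotypes, at -0.21 (SE 0.44, adjusted p 0.790). A dimmer probe of Cd44, singled out after its values were seen, fell by 1.48 (SE 0.25, limma adjusted p 0.0369), while the brightest Cd44 probe differed by -1.45 (adjusted p 0.0633). The dimmer probe lost its call without control replicate 2 (adjusted p 0.109), control replicate 3 (0.101), knockout replicate 1 (0.0733) or knockout replicate 3 (0.0955), and with dim probes tested (0.0562).

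Of 16 tested crypt base and stem cell genes (18 listed), 0 were called in limma, with a median of 0.09. At an unadjusted p under 0.05 there were 3 higher and 4 lower, beside 26.8% of all tested probes. The largest differences, both at the brightest probe, were those of Reg4 (2.82, SE 1.17, adjusted p 0.213) and the water channel Aqp4 (2.57, SE 0.63, adjusted p 0.0772). Reg4 encodes a secreted product of deep crypt secretory cells in the colon. It had 2 usable spots per genotype, and its genotypes overlapped with all spots kept. The largest lower difference was that of Slc14a1 (-2.01, SE 0.55, limma adjusted p 0.0830). The probes of Aqp4 disagreed: a dimmer one (A_55_P2742038), also well above background on all 6 arrays, differed by 0.0040 (SE 0.30, adjusted p 0.995). With outlier spots kept, the brightest Aqp4 probe was 2.87 higher (limma adjusted p 0.0440) and the second 2.63 higher (adjusted p 0.0310). Reg4 was then 2.29 higher (adjusted p 0.294). Around Lrig1, 1 of 6 tested LRIG and ERBB genes was called in limma. It was Erbb3, a receptor for neuregulins, which read -5.21, -6.75 and -6.15 in controls and -3.49, -3.76 and -3.88 in knockouts. It was well above background on all 3 knockout arrays but on 1 of 3 control arrays, so it entered the test through the knockouts alone and the size of its difference, 2.33 (SE 0.38, adjusted p 0.0363), is uncertain. It stayed called only without control replicate 1 among the fits with an array left out (adjusted p 0.0141 there and up to 0.0985 in the others).

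**Figure D4:**
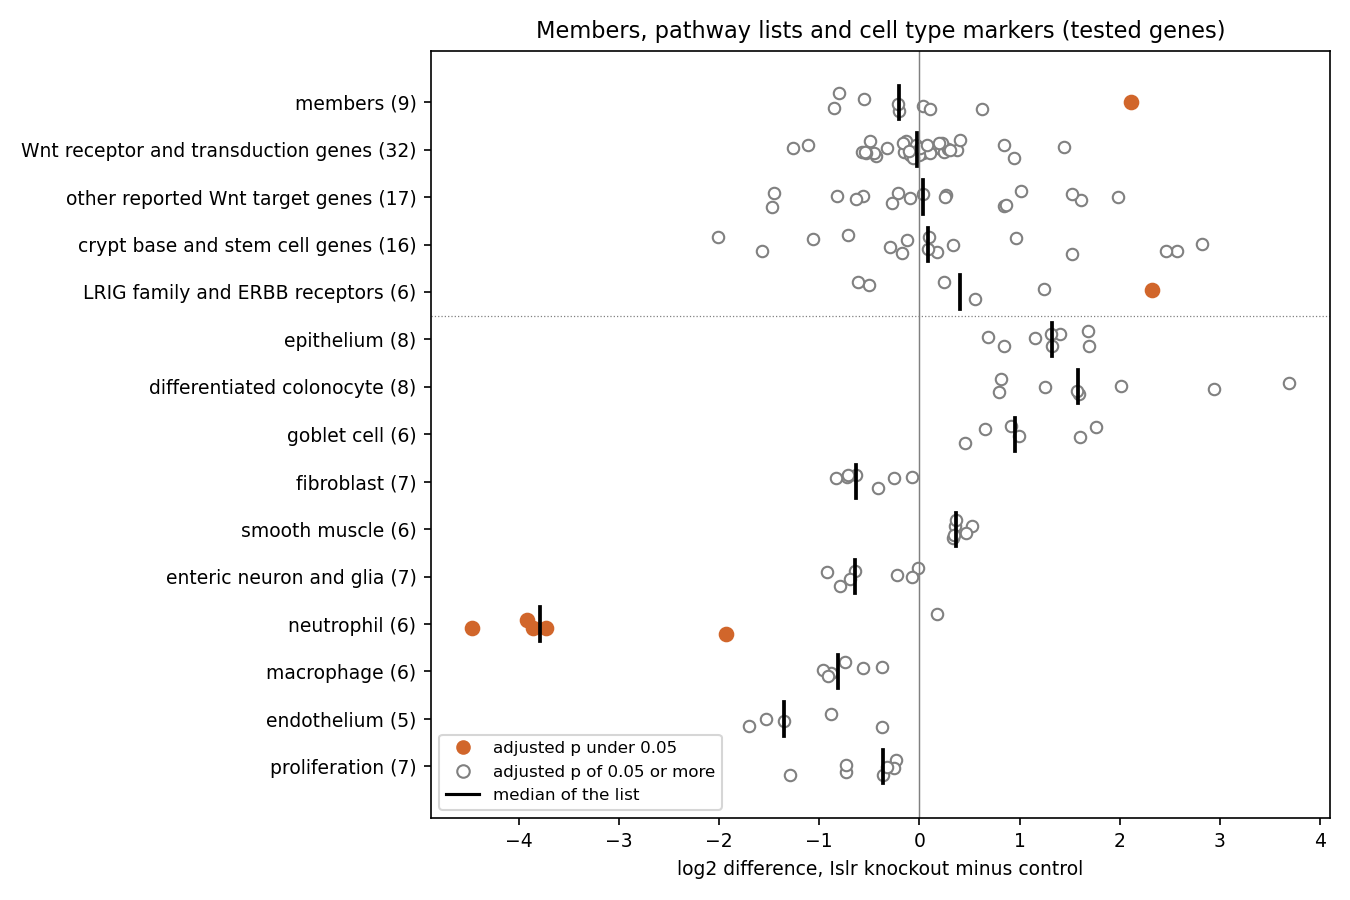
Log2 difference, knockout minus control, of the brightest tested probe of each member, pathway gene and cell type marker, 1 point per gene with the number of tested genes in brackets; orange marks a limma adjusted p under 0.05 and black bars the list medians. The members and pathway lists have medians of -0.20 to 0.40, with Rnf43 and Erbb3 called (Erbb3 was well above background on 1 of 3 control arrays), whereas all 8 epithelial markers lie above 0 and 5 of 6 neutrophil markers are called lower.

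Marker levels moved beside the members. Goblet cell markers were higher at 6 of 6 tested genes (median 0.96) and those of differentiated colonocytes at 8 of 8 (1.58), while fibroblast markers were lower at 7 of 7 (-0.63), enteric neuron and glia markers at 7 of 7 (-0.65), macrophage markers at 6 of 6 (-0.81), endothelial markers at 5 of 5 (-1.36) and proliferation genes at 7 of 7 (-0.37). In these lists 0 genes were called in limma, and 4 of 8 colonocyte, 4 of 7 fibroblast, 4 of 6 macrophage and 4 of 5 endothelial genes had an unadjusted p under 0.05, as did 2 neuron and glia, 1 proliferation and 0 goblet cell genes. Smooth muscle markers were higher at 6 of 6 (median 0.36), with 0 called and 2 at an unadjusted p under 0.05. Over all tested probes, 26.8% had an unadjusted p under 0.05. The summed fibroblast level was 44.9 to 52.8 in controls and 28.5 to 40.2 in knockouts, and that of proliferation genes 9.24 to 17.0 and 8.58 to 12.6. Summed goblet cell levels overlapped between genotypes, at 14.9 to 62.4 in controls and 52.5 to 72.7 in knockouts. Neutrophil markers moved most: 5 of 6 were called lower, by -4.47 to -1.93 on the log2 scale, with a list median of -3.79. The exception was the receptor Csf3r, at 3.02 in controls and 3.20 in knockouts on average, whose signal makes up the largest part of their sum, 19.6 to 20.8 in controls and 9.90 to 10.4 in knockouts. Mmp8, among the neutrophil markers called lower (-3.85), was well above background on 5 of 6 arrays, so the size of its difference is uncertain. No listed marker was below background on all arrays. Their part in the differences at Rnf43, Lrig1, Apcdd1 and Sp5 was not tested beyond the ratio to the epithelial sum.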

How the data were processed

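Total RNA of 6 colon samples was labelled and hybridised to Agilent design 074809. Per the file headers, Feature Extraction 11.5.1.1 read the red channel alone and detrended and background-subtracted each spot; the submitters' processing notes give version 10.7, and the labels name Cy3. The deposited processed signal is a linear intensity with no scaling between arrays, per the file headers; other deposited columns used are the scanner software's marks of 0 or 1. The series' deposited value table holds intensities of the same arrays (log2 correlation with the scanner files of at least 0.999999) and served as an alternative.

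From these, log2 intensity minus the array's 75th percentile over 59305 non-control spots was computed, with non-uniform and population outlier spots treated as missing and spots of a probe averaged. No spot was saturated. A probe was tested if every array of either genotype lay well above background and each genotype kept at least 2 usable values (35351 of 56605; 40172 passed the background rule alone). The two-sided test was limma's moderated one (version 3.58.1, lmFit then eBayes, under R 4.3.3) on genotype, with Benjamini-Hochberg adjusted p over every tested probe. Log2 differences are knockout minus control. The number of arrays limits the precision.

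Probes were named by unversioned RefSeq accession in GRCm38.p6 (33767 of 56605, 23462 genes); the files place probes on mm9, so no gene coordinates are given. The brightest tested probe stood for a gene. Genes were named by rule: all members, Islr, called list genes or otherwise the 2 largest differences well above background on all arrays, and Ctnnb1, Tcf7l2, Lgr4, Lrp6, Myc and Sox9. Fzd4 and Slc14a1 were named in addition, after their values were seen. Members and lists were chosen with earlier results of these data known. Labels do not say that the samples are separate litters or extractions, so p-values measure the spread between these arrays. With changes simulated for the knockout comparison at 200 of 35351 probes, 60% of changes of 2 and 83% of changes of 3 (log2) were recovered, and 4 of 147 calls were false.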

Additional observations from a re-analysis of the deposited data

How the results depend on the processing

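All alternatives kept the direction of Rnf43 and of the Rnf43 change relative to Znrf3 (2.28 to 3.32 with an array left out; at this Znrf3 probe, leaving out control replicate 1 or knockout replicate 2 changed nothing, since their spots were already missing, and each of the other 4 left 1 array in a genotype). With an array left out, 40 to 2114 probes of the whole array and 0 to 2 member probes were called, the members' median lay between -0.37 and -0.0013, and Islr differed by -2.58 to -2.34 in the 4 such fits that tested it (too few usable control spots remained without control replicate 2 or 3), with its call lost without knockout replicate 3 (adjusted p 0.0580). In these fits the counts of called genes ran from 0 to 1 for receptor and transduction genes higher, further Wnt targets higher, crypt base genes lower and the LRIG and ERBB list higher. The whole-array count of 1403 became 2773 with normexp and quantile normalization, 2185 with quantile normalization, 2249 with median centring, 484 without a filter on dim probes and 8119 with array weights. Array weights called 3 of 11 member probes (Rnf43, Ascl2 and Znrf3), beside 8119 of all 35351 tested probes. Kept outlier spots called 2 of 13 (Rnf43 and Lrig1), beside 1948 of 40172. The fit with dim probes called 0 of 13, beside 484 of 51784.

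Receptor and transduction genes gave 1 lower call, Fzd4, under normexp, quantile normalization and median centring, and 2 higher and 2 lower with array weights. Further Wnt targets gave 1 higher and 2 lower under normexp, 0 higher and 1 lower under quantile normalization and with outlier spots kept, 1 and 1 under median centring and with an intensity trend, and 5 and 3 with array weights. Crypt base genes gave 1 lower under quantile normalization, 1 higher with outlier spots kept, and 4 higher and 3 lower with array weights. The LRIG and ERBB list gave 0 with dim probes tested and 3 higher and 1 lower with array weights. All list counts with array weights stand beside 8119 of 35351 probes called in that fit. Directions turned for Nkd1 (-0.055 under normexp, -0.30 with outlier spots kept, -0.088 with array weights), Notum (-0.0095 with array weights; -0.13 without control replicate 1, the lowest of a range to 0.23 with an array left out) and the third Znrf3 probe (0.10 without control replicate 3, the highest of a range from -0.29). The cause of these shifts was not tested. No paired analysis was possible because the labels give the samples no shared replicate numbers. The ratios to the epithelial sum, to the further Znrf3 probes the Lrig1 fits with an array left out and the fits of the dimmer Cd44 probe were added after the data were seen. Dim probes limited Sp5, Erbb3, Mmp8 and the second probes of Axin2 and Notum.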
